A study of Homo sapiens with 9 samples.

Results

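The MMP and ADAMTS metalloproteases and their TIMP inhibitors were examined in A431 cells, an epidermoid carcinoma cell line that carries endogenous mutant p53. Genes were chosen by symbol alone: MMP or ADAMTS followed by a number (with an optional letter for MMP), and TIMP1 to TIMP4. This gave 47 of the 58051 genes in the count table, namely 24 MMP, 19 ADAMTS and 4 TIMP genes. Poly(A) RNA libraries came from 3 groups of 3: A431 parental (mutp53) cells, the Ctrl (mutp53) line and the p53 KO line. The p53 KO cells were made with a CRISPR construct against p53 and the Ctrl cells with an empty vector, and the labels name no construct for parental cells. The labels state that cells were raised from single colonies and collected 48 h after settling in 6-well plates, in medium with 10% serum. Whether a group is 1 clone or several is not given in the sources used here. Nothing states that the libraries of a group came from separate cultures, so the p-values measure the spread between these libraries, which may be technical.

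MMPs are zinc-dependent endopeptidases that are made as inactive precursors and cleave collagens, laminins, other matrix proteins and many cell surface proteins. Most are secreted, and a few are held at the cell membrane. ADAMTS proteases are secreted, carry thrombospondin repeats and cut proteoglycans and procollagens. TIMPs bind the active site of these enzymes and block it. In squamous carcinoma both tumour and stromal cells are known to make them.

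Libraries held 19783778 to 29840452 counts on genes. These depths cover counting error only. Values are given as CPM (library-size normalised counts), and as CPM per kb of exon (RPKM) where genes are compared with each other. Groups were compared with edgeR, with 1 model for all 9 libraries. A gene passed at an adjusted p-value of 0.05 or less, and it was called if the log2 fold change also lay beyond 1.5 in either direction. Of 10 squamous markers 9 passed the filter, and EGFR, which A431 cells are known to overexpress, had 169946 to 452758 counts per library. KRT14 did not pass the filter, with 0 to 1 counts in parental, 1 to 3 in Ctrl and 7 to 13 in p53 KO libraries. Of 7 fibroblast markers, 4 (COL3A1, LUM, DCN and THY1) had 0 counts in all libraries, and the 7 together reached 2.38 to 4.42 CPM per library. PTPRC and CD3E of the leukocyte list and KDR of the endothelial list were also at 0. Other markers of these lists had some counts. COL1A1 of the fibroblast list passed the filter, with 47 to 114 counts per library. CD68 had 15 to 42 counts per library. LYZ had 17 to 40 counts in p53 KO, 2 to 10 in Ctrl and 1 to 5 in parental libraries. PECAM1 had 8 to 13 counts in Ctrl, 1 to 6 in parental and 3 to 8 in p53 KO libraries. It passed the filter only through Ctrl libraries, so its log2 difference of 1.68 between Ctrl and parental cells is a description. VWF had 7 to 13 counts in Ctrl, 2 to 4 in parental and 0 to 2 in p53 KO libraries. The part of these markers in the results was not tested. The squamous list summed to 15913 to 18910 CPM in parental, 10585 to 12700 CPM in Ctrl and 14940 to 15571 CPM in p53 KO libraries. The leukocyte list summed to 0.92 to 1.34, 1.30 to 1.86 and 2.09 to 2.99 CPM, and the endothelial list to 0.38 to 0.65, 0.82 to 1.16 and 0.40 to 0.53 CPM, in the same order of groups. In bulk RNA, fewer cells of a kind and less RNA per cell cannot be told apart. The library Ctrl 1 stood apart: chi-square per degree of freedom over the genes tested was 37.8 and 49.4 between it and Ctrl 2 and Ctrl 3, and 5.17 to 16.0 between all other pairs within groups. Results that rest on it are given without it.

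Of the 47 genes, 18 passed the filter on low counts: 6 MMP, 8 ADAMTS and 4 TIMP genes. Of the other 29, 10 had 0 counts in all 9 libraries (ADAMTS1, ADAMTS5, ADAMTS8, ADAMTS10, ADAMTS17, ADAMTS18, ADAMTS19, MMP23A, MMP26 and MMP27), which allows up to 3 counts over the libraries of a group. A further 10 had 1 to 10 counts over all libraries together. MMP9, the gelatinase most often measured beside MMP2, had 1 count in all. Another 6 had more than 10 counts in total but no more than 10 in any library, and MMP1, MMP7 and MMP13 exceeded 10 counts in at least 1 library. MMP23A and MMP23B are near-identical copies, so their counts are uncertain.

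Per kb of exon, TIMP3 was the most abundant in every group. In parental cells its level was 225 ± 9.28 RPKM (SD, n = 3). TIMP1 followed at 40.9 ± 1.37 RPKM, then MMP14 at 24.9 ± 0.21 RPKM and TIMP2 at 13.1 ± 0.55 RPKM. MMP15 had 6.61 ± 0.21 RPKM, and the other 13 genes lay at or below the 2.92 ± 0.38 RPKM of ADAMTS15. In p53 KO cells the first 5 places were held in the same order, and MMP2 with 3.50 ± 0.22 RPKM and MMP28 with 3.31 ± 0.31 RPKM came next. The levels of these last did not differ beyond their spread. MMP14 made up 69.5% ± 0.42 of the summed RPKM of all MMP genes in parental, 74.6% ± 1.53 in Ctrl cells and 52.6% ± 0.08 in p53 KO cells. The sum itself was 35.9 ± 0.40 RPKM in parental cells, 35.8 ± 4.36 RPKM in Ctrl cells and 39.6 ± 1.42 RPKM in p53 KO cells. The ranges of the sum in Ctrl libraries overlapped with those of both other groups, and the p53 KO libraries lay above the parental libraries. Both overlaps rested on Ctrl 1 (40.8 RPKM), since Ctrl 2 and Ctrl 3, at 34.2 and 32.5 RPKM, lay below every parental and p53 KO library. MMP14 held a smaller share of it in each p53 KO library than in any other.

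**Figure D1:**
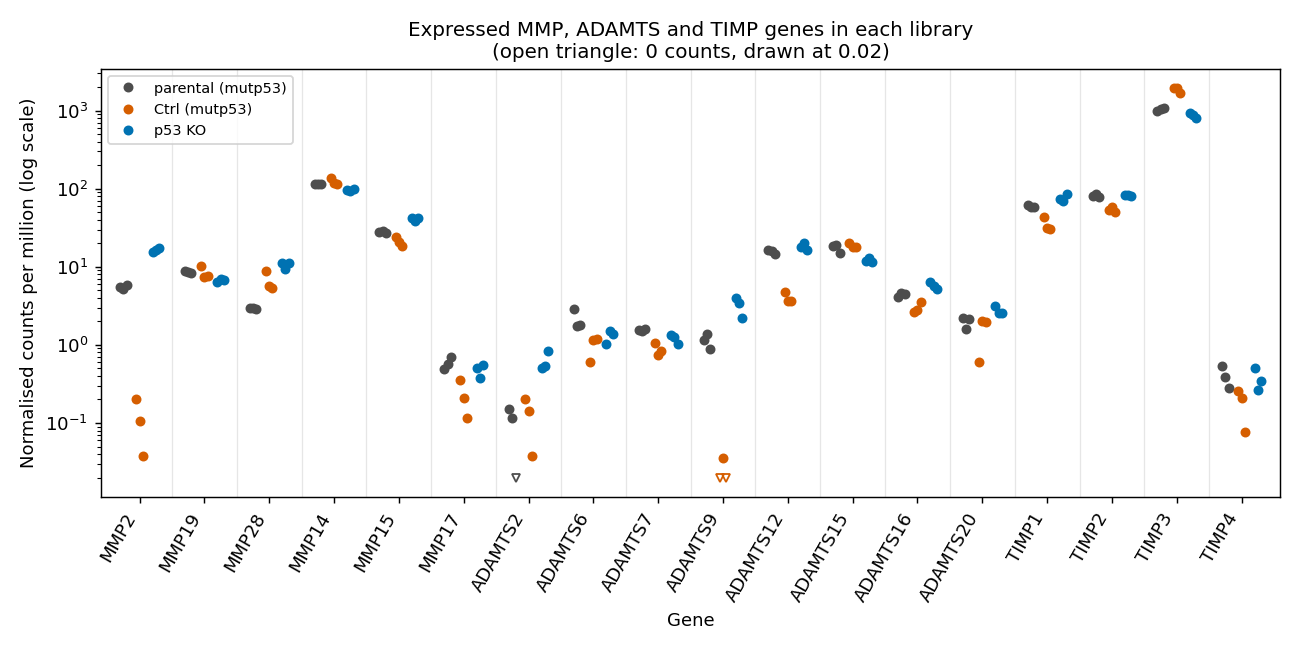
CPM (log scale) of the 18 genes that passed the filter, with 1 point for each of the 9 libraries, coloured by group. MMP2 and ADAMTS9 nearly vanish from the Ctrl libraries and are highest in p53 KO, while TIMP3 exceeds every other gene and is highest in Ctrl.

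RefSeq promoter windows (GRCh38.p14, 250 bases before to 50 after the start) were found for 27 of the 47 genes. They were searched on both strands for TGANTCA, with any base at N, and for TATAAA, the TATA box. TGANTCA is wider than the core of sites bound by AP-1 factors, which has C or G at N. The stretches below are the 120 bases before the start of MMP7, ADAMTS12 and ADAMTS2, which had more counts in p53 KO than in Ctrl cells (MMP7 was below the filter on low counts), and of MMP14 and TIMP3, which fell. Each is written 5′ to 3′ on the strand of the gene, with matches in capitals.
MMP7, chr11:102530748-102530867, minus strand: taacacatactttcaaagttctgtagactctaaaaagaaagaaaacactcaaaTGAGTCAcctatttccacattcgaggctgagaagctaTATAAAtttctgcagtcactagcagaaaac
ADAMTS12, chr5:33891991-33892110, minus strand: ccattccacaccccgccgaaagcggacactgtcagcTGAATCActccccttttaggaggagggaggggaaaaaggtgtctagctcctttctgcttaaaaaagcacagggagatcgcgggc
ADAMTS2, chr5:179345462-179345581, minus strand: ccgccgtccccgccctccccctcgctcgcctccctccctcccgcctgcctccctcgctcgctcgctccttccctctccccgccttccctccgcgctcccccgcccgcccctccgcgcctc
MMP14, chr14:22836465-22836584, plus strand: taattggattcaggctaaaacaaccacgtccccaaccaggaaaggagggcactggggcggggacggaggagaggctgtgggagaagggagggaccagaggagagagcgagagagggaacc
TIMP3, chr22:32801585-32801704, plus strand: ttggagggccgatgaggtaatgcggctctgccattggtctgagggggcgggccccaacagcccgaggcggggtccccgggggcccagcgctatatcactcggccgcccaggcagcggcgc
MMP7 held TGAGTCA 67 bases and TATAAA 30 bases before the start. ADAMTS12 held TGAATCA 84 bases before the start, and the other stretches held neither motif. Of the 27 windows, 4 held TGANTCA (ADAMTS12, MMP7, MMP10 and MMP20), or 14.8%, against 7.76% of 27305 windows of all genes. TATAAA was in 7 of the 27 (25.9%) and in 12.0% of all. The windows of MMP15 and TIMP1, which are not printed and were also higher in p53 KO than in Ctrl cells, held neither motif. MMP10 and MMP20 had 1 count each over all libraries. The printed stretches are examples, and a link of motif to direction was not tested. A match is a sequence description and not evidence that a factor bound there.

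MMP2, ADAMTS9, MMP28, MMP15 and ADAMTS2 rose in p53 KO compared with parental cells. ADAMTS15 and MMP14 fell. Thus 5 of the 18 genes were higher (27.8%), where 9.77% of the 14513 genes tested were, and 2 were lower, where 8.36% were. The 4 called higher were MMP2, ADAMTS9, MMP28 and ADAMTS2, against 1.23% of all genes, and no gene of the families was called lower, against 0.717%. The median log2 fold change of the 18 was 0.11, and that of all genes was 0.01. The count of 7 was 14 without Ctrl 1, when the genes that passed rose from 2631 to 4944 over the whole table. A gene that enters the test only through its high group had to differ, and ADAMTS2 was such a gene. Without it, 4 genes were higher and 3 were called higher.

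Against Ctrl cells, 9 of the 18 were higher in p53 KO cells: MMP2, MMP15, MMP28, ADAMTS2, ADAMTS9, ADAMTS12, ADAMTS16, TIMP1 and TIMP2. Over all genes 15% were higher. The 4 called higher were MMP2, ADAMTS2, ADAMTS9 and ADAMTS12, against 2.18% of all genes. Without ADAMTS2 these counts were 8 and 3. MMP14, ADAMTS15 and TIMP3 were lower, against 14.2% of all genes, and none was called lower, against 1.11%. The median log2 fold change of the 18 was 0.87, against 0.01 over all genes. All of the genes that changed against parental passed in the same direction here, so 5 were higher against both controls, or 4 without ADAMTS2 (6.46% of all genes), and 2 were lower (5.25%). The count of 7 was 11 without Ctrl 1. The 2 comparisons share the p53 KO libraries.

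Ctrl cells themselves differed from parental cells in 12 of the 18 genes. MMP28 and TIMP3 were higher, where 10.6% of all genes were. MMP2, MMP15, MMP17, ADAMTS6, ADAMTS7, ADAMTS9, ADAMTS12, ADAMTS16, TIMP1 and TIMP2 were lower, where 9.69% of all genes were. Of these, MMP17 passed the filter only with the help of parental libraries, so its decrease is a description. Called lower were MMP2, ADAMTS9 and ADAMTS12 (1.27% of all genes) and none was called higher (0.668%). The median log2 fold change was -0.56, against 0.00 over all genes. The count of 12 was 7 without parental 1, when the genes that passed over the whole table fell from 2943 to 1379. Both groups carry mutant p53, and the Ctrl and p53 KO lines were both made by transfection. By subtraction, differences of p53 KO from Ctrl cells hold the shift of Ctrl from parental cells with its sign turned. Differences of p53 KO from parental cells hold any effect of transfection. Effects of clone and of p53 loss cannot be told apart in either comparison. The values against both controls are given side by side for each gene.

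**Figure D2:**
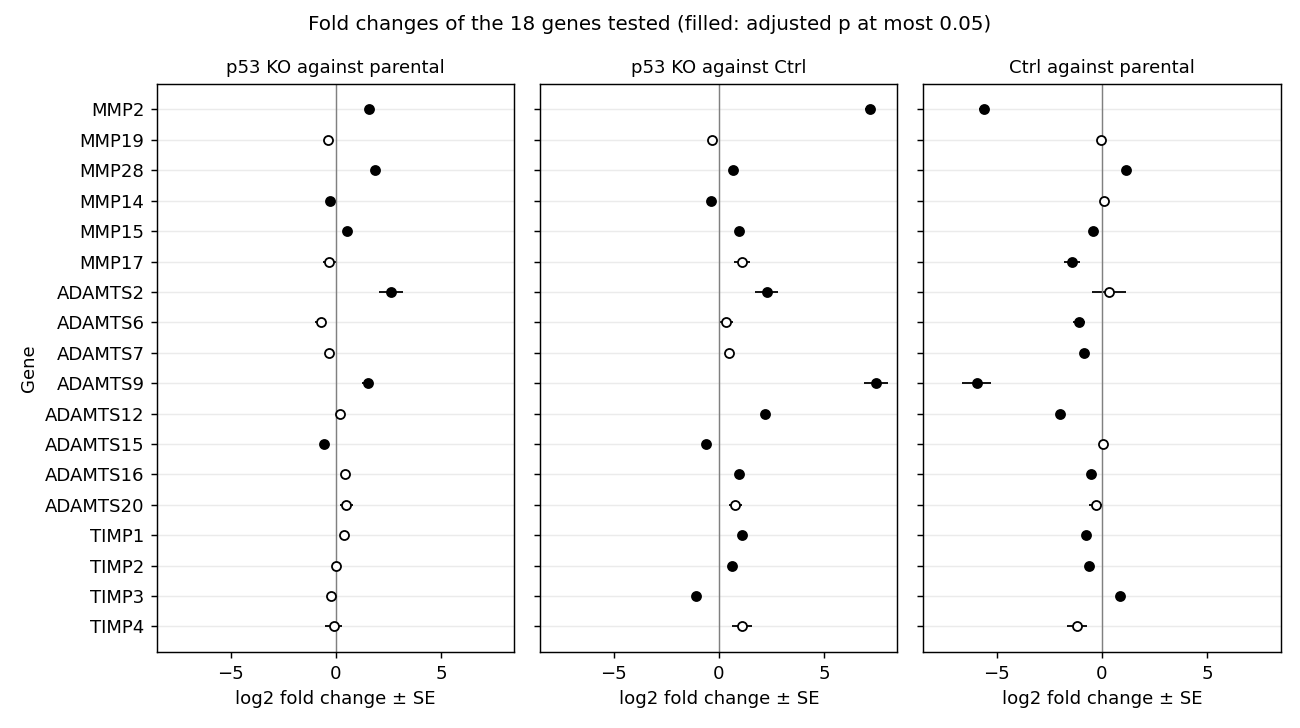
Fitted log2 fold changes (points) with standard errors (bars) of the 18 genes in the 3 comparisons, with filled points for adjusted p-values of at most 0.05. MMP2 and ADAMTS9 reach 7.19 and 7.48 in p53 KO against Ctrl but 1.57 and 1.51 against parental cells.

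MMP2 (gelatinase A, which cuts denatured collagen and type IV collagen) had the widest range of the MMP genes. It lies at chr16:55389700-55506691 on the plus strand (positions of genes are from GENCODE release 44 on GRCh38). Its level was 5.47, 5.19 and 5.91 CPM in parental, 0.204, 0.105 and 0.038 CPM in Ctrl, and 15.6, 16.2 and 17.6 CPM in p53 KO libraries. The 3 groups did not overlap. MMP2 rose by 1.57 (SE 0.12) on the log2 scale, or 2.98-fold, in p53 KO against parental cells (adjusted p = 1.5e-05). Against Ctrl cells the log2 difference was 7.19 (SE 0.22, adjusted p = 1.2e-08), and this rested on 1245 counts against 8. Ctrl cells were 48.9-fold lower than parental cells (log2 difference -5.61, SE 0.26, adjusted p = 5.0e-07). The 41 expressed genes within 5 Mb of MMP2 had median log2 differences of -0.01, 0.06 and -0.01 in the same comparisons.

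MMP28 (epilysin, a secreted MMP of keratinocytes and other epithelia) rose in steps from parental to Ctrl to p53 KO cells. Its level was 2.98, 2.96 and 2.86 CPM in parental, 8.87, 5.69 and 5.41 CPM in Ctrl, and 11.2, 9.43 and 11.1 CPM in p53 KO libraries. The groups did not overlap. The log2 difference of p53 KO was 1.84 (SE 0.18, adjusted p = 9.1e-05) from parental and 0.68 (SE 0.17, adjusted p = 0.010) from Ctrl cells. Ctrl cells were also above parental cells, by 1.16 (SE 0.19, adjusted p = 0.0020).

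MMP19, another secreted MMP, had 6.31 to 6.96 CPM in p53 KO libraries, 7.41 to 10.2 in Ctrl and 8.26 to 8.84 in parental libraries. All p53 KO libraries lay below the others, but the differences did not pass (log2 -0.37, SE 0.13, adjusted p = 0.073 against parental, and -0.32, SE 0.13, adjusted p = 0.086 against Ctrl). In a fit without Ctrl 1 the first of these had an adjusted p of 0.0092. MMP19 shares 821 exon bases with TMEM198B on the opposite strand, and the strand setting of the counting is not given in the sources used here.

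Among the membrane-bound MMPs, MMP14 and MMP15 moved in opposite directions. MMP14 (MT1-MMP, the membrane collagenase that activates the MMP2 precursor) had 116, 115 and 114 CPM in parental, 137, 119 and 114 CPM in Ctrl, and 97.7, 92.4 and 98.8 CPM in p53 KO libraries. The p53 KO libraries lay below all 6 controls. MMP14 fell by 0.36 (SE 0.079) on the log2 scale against Ctrl (adjusted p = 0.0059) and by 0.26 (SE 0.079) against parental cells (adjusted p = 0.045). The second difference passed in 7 of 16 fits, with adjusted p-values from 0.0023 to 0.15, and was lost when any parental library, any p53 KO library or Ctrl 2 was left out. With Ctrl 2 left out its adjusted p was 0.061. MMP15 (MT2-MMP) had 27.1 to 28.9 CPM in parental, 18.4 to 24.0 CPM in Ctrl and 39.1 to 42.5 CPM in p53 KO libraries, and no groups overlapped. Its log2 difference was 0.55 (SE 0.098, adjusted p = 0.0027) from parental and 0.97 (SE 0.099, adjusted p = 4.1e-05) from Ctrl cells. Ctrl against parental cells gave -0.42 (SE 0.10, adjusted p = 0.016), with adjusted p-values of 0.053 to 0.058 without parental 1, parental 2 or Ctrl 2. MMP17 (MT4-MMP) was near the limit, with 13 to 15 counts in parental, 3 to 7 in Ctrl and 10 to 15 in p53 KO libraries. It passed only as a decrease in Ctrl against parental cells (log2 -1.41, SE 0.38, adjusted p = 0.025). MMP17 passed the filter only with the help of parental libraries, its high group here, so this decrease is given as a description. Its adjusted p was above 0.05 without any parental library, without Ctrl 2 and without Ctrl 3 (0.054 to 0.085). Without Ctrl 1 its log2 difference of 1.496 from Ctrl cells passed (adjusted p = 0.021).

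MMP1, MMP3, MMP7, MMP12 and MMP13 stand in a cluster of 9 MMP genes that spans 435 kb of chromosome 11 (chr11:102520508-102955732). The cluster encodes interstitial collagenases (MMP1, MMP8 and MMP13), stromelysins (MMP3 and MMP10), matrilysin (MMP7), macrophage elastase (MMP12), enamelysin (MMP20) and MMP27. None of the 9 passed the filter, so the main model holds no test of them, and each is described by its counts. MMP1 had 0, 5 and 1 counts in parental, 2, 1 and 0 in Ctrl, and 17, 11 and 6 in p53 KO libraries. MMP13 had 0, 3 and 1 counts in parental, 1, 0 and 2 in Ctrl, and 12, 9 and 7 in p53 KO libraries. MMP7, whose promoter is printed above, had 6, 1 and 2 counts in parental, 1, 2 and 1 in Ctrl, and 11, 10 and 6 in p53 KO libraries. For MMP1 and MMP13 the p53 KO libraries lay above all 6 controls, while 1 p53 KO library of MMP7 equalled the highest parental library in counts.

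**Figure D3:**
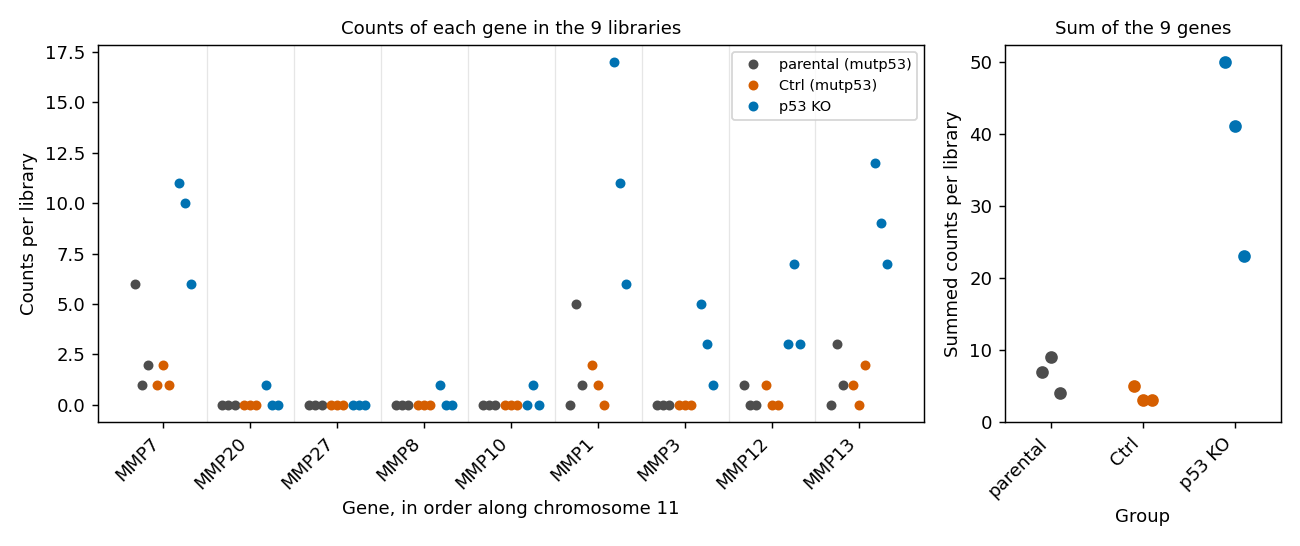
Counts per library of the 9 MMP genes of the chromosome 11 cluster, in their order along the chromosome (left), and the sum of the 9 genes in each library (right), coloured by group. The sum was 23 to 50 counts in p53 KO, 4 to 9 in parental and 3 to 5 in Ctrl libraries.

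Summed over the 9 genes, p53 KO libraries held 50, 41 and 23 counts. Parental libraries held 7, 9 and 4 counts and Ctrl libraries 5, 3 and 3. The ratio of summed counts, scaled by library size, was 5.52 (exact 95% interval 3.41 to 9.37) for p53 KO against parental and 10.1 (5.44 to 20.8) against Ctrl cells, where the intervals cover counting error only. MMP12 had 13 counts in p53 KO and 1 in each of the other groups, which gives ratios of 12.6 (1.89 to 535) against parental and 12.7 (1.90 to 538) against Ctrl. MMP3 had 5, 3 and 1 counts in p53 KO libraries and 0 elsewhere. Taking 3 counts over the group as the limit, the ratio of summed counts was 2.90 to parental and 2.92 to Ctrl cells. These ratios leave out the counting error of the p53 KO counts, so they are not lower bounds. MMP8, MMP10 and MMP20 had 1 count each, and all 3 were in p53 KO libraries.

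When the edgeR model was fitted without the filter on low counts, MMP1 (log2 2.37, SE 0.65, adjusted p = 0.0042) and MMP13 (log2 2.65, SE 0.74, adjusted p = 0.0056) passed for p53 KO against parental cells. In the comparison with Ctrl cells, MMP1 (adjusted p = 0.00017), MMP13 (adjusted p = 0.0014), MMP7 (adjusted p = 0.0036), MMP3 (adjusted p = 0.042) and MMP12 (adjusted p = 0.047) passed. MMP7 (log2 1.498, SE 0.62, adjusted p = 0.11), MMP3 (adjusted p = 0.057) and MMP12 (adjusted p = 0.062) did not pass against parental cells. With DESeq2, MMP1 missed the threshold against parental cells (adjusted p = 0.067) and MMP13 passed (adjusted p = 0.043). Against Ctrl cells DESeq2 gave adjusted p-values of 0.014 for MMP1, 0.020 for MMP13 and 0.026 for MMP7, while MMP12 no longer passed (adjusted p = 0.096) and MMP3 was given no adjusted p (unadjusted p = 0.066). The 14 expressed genes within 5 Mb of MMP1 had a median log2 difference of 0.07 against parental and 0.05 against Ctrl cells. MMP1 shares 223 exon bases with WTAPP1 on the opposite strand. At about 1.46 ± 0.28 CPM for the whole cluster in p53 KO cells, these transcripts were scarce beside the 96.3 ± 3.42 CPM of MMP14.

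ADAMTS9 (a secreted protease of versican and aggrecan) followed the pattern of MMP2. It lies at chr3:64515654-64688000 on the minus strand. Libraries held 30, 36 and 19 counts in parental, 0, 1 and 0 counts in Ctrl, and 120, 90 and 45 counts in p53 KO cells. The groups did not overlap, and the Ctrl libraries were at the limit of detection. The log2 difference of p53 KO from parental cells was 1.51 (SE 0.26, adjusted p = 0.0022). Against Ctrl cells 255 counts stood against 1, a ratio of 248 with an exact 95% interval of 44.2 to 9852. The fitted log2 difference of 7.48 (SE 0.56, adjusted p = 4.3e-06) rests on that single count. Ctrl against parental cells gave a ratio of 0.0117 (0.000292 to 0.0669). The 13 expressed genes within 5 Mb had median log2 differences of 0.12 and 0.06 for p53 KO against parental and against Ctrl, and of 0.02 between the controls. ADAMTS9 shares 174 exon bases with ADAMTS9-AS1 on the opposite strand.

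ADAMTS12 (a secreted protease that cuts COMP) differed mainly in Ctrl cells. Its level was 16.4, 15.8 and 14.8 CPM in parental, 4.69, 3.65 and 3.62 CPM in Ctrl, and 17.7, 19.9 and 16.2 CPM in p53 KO libraries. Parental and p53 KO libraries overlapped, and all Ctrl libraries lay below both. The log2 difference from Ctrl was 2.19 (SE 0.13, adjusted p = 8.3e-07), while that from parental cells was 0.20 (SE 0.11, adjusted p = 0.25). Ctrl cells were 3.97-fold lower than parental cells (adjusted p = 4.5e-06). The TGAATCA match shown in its promoter has A at N, outside the AP-1 core. It is present in the reference sequence and says nothing of use in these cells.

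ADAMTS2 (a procollagen N-proteinase) had 4, 3 and 0 counts in parental, 4, 4 and 1 in Ctrl, and 15, 14 and 17 in p53 KO libraries. The p53 KO libraries lay above all 6 controls. It passed the filter only through these, so its fitted log2 differences of 2.62 (SE 0.58) from parental and 2.28 (SE 0.55) from Ctrl cells are given as a description. From summed counts the ratio to parental cells was 6.36 (exact 95% interval 2.85 to 16.7). The level stayed low, at 0.070 ± 0.021 RPKM in p53 KO cells.

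ADAMTS15, a protease of versican and aggrecan, was the ADAMTS gene that fell in p53 KO cells. Its level was 18.6, 19.2 and 14.9 CPM in parental, 19.9, 17.8 and 17.9 CPM in Ctrl, and 11.7, 12.8 and 11.5 CPM in p53 KO libraries. The p53 KO libraries lay below all 6 controls. It fell by 0.55 (SE 0.11) on the log2 scale against parental (adjusted p = 0.0053) and by 0.62 (SE 0.11) against Ctrl cells (adjusted p = 0.0014), while Ctrl and parental cells overlapped (log2 0.07, SE 0.11).

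ADAMTS16 had 4.05 to 4.58 CPM in parental, 2.65 to 3.58 CPM in Ctrl and 5.26 to 6.44 CPM in p53 KO libraries. Its log2 difference of 0.94 (SE 0.14) from Ctrl passed (adjusted p = 0.00055), and that of 0.42 (SE 0.14) from parental cells did not (adjusted p = 0.057, or 0.024 without Ctrl 1 and 0.036 without Ctrl 3). Its decrease in Ctrl against parental cells (log2 -0.53, SE 0.15, adjusted p = 0.030) had adjusted p-values of 0.057 to 0.098 without any parental library, Ctrl 1 or Ctrl 2. ADAMTS6 and ADAMTS7 passed as decreases in Ctrl against parental cells. For ADAMTS6 the log2 difference was -1.09 (SE 0.29, adjusted p = 0.024), and without parental 1 it was -0.80 (adjusted p = 0.11). In p53 KO against parental cells ADAMTS6 gave -0.72 (SE 0.28, adjusted p = 0.096, or 0.031 without Ctrl 1). For ADAMTS7 it was -0.83 (SE 0.20, adjusted p = 0.016), with adjusted p-values of 0.055 to 0.061 without parental 1, parental 3 or Ctrl 2. ADAMTS20 passed in none of the 3 comparisons. Its Ctrl 1 library held 12 counts where Ctrl 2 and Ctrl 3 held 58 and 52, and without Ctrl 1 its log2 difference of 0.50 from parental cells had an adjusted p of 0.040.

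The summed ADAMTS level was 6.17 ± 0.48 RPKM in parental, 4.52 ± 0.13 RPKM in Ctrl and 5.97 ± 0.42 RPKM in p53 KO cells. The Ctrl libraries lay below all others, and the parental and p53 KO libraries overlapped.

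Among the inhibitors, TIMP3 differed most in counts between Ctrl and the other groups. TIMP3 binds to the matrix and inhibits MMPs, several ADAMTS proteases and ADAM17. Its level was 991, 1038 and 1076 CPM in parental, 1946, 1942 and 1684 CPM in Ctrl, and 940, 873 and 816 CPM in p53 KO libraries. All Ctrl libraries lay above the rest, and p53 KO libraries lay just below parental libraries. TIMP3 fell by 1.08 (SE 0.080) on the log2 scale in p53 KO against Ctrl cells (adjusted p = 4.2e-06). Against parental cells the difference of -0.24 (SE 0.080) did not pass (adjusted p = 0.059), but it passed in 5 of 16 fits, among them those without Ctrl 1 (adjusted p = 0.013) or Ctrl 3 (adjusted p = 0.030). Ctrl cells were 1.79-fold higher than parental cells (adjusted p = 6.5e-05). TIMP3 made up 80.5% ± 1.07 of the summed TIMP RPKM in parental cells, 92.4% ± 0.77 in Ctrl cells and 74.1% ± 2.87 in p53 KO cells.

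TIMP1 (a secreted inhibitor with broad action on secreted MMPs, chrX:47582408-47586789) had 61.4, 57.9 and 58.1 CPM in parental, 43.5, 31.7 and 30.6 CPM in Ctrl, and 73.4, 69.7 and 86.7 CPM in p53 KO libraries. The groups did not overlap. It rose by 1.12 (SE 0.13) on the log2 scale in p53 KO against Ctrl cells (adjusted p = 0.00011). The difference of 0.37 (SE 0.13) from parental cells did not pass (adjusted p = 0.072), and without Ctrl 1 its adjusted p was 0.0019. Ctrl cells were 1.68-fold lower than parental cells (adjusted p = 0.0031). TIMP2 (an inhibitor that also takes part in MMP2 activation by MMP14) had 78.5 to 85.1 CPM in parental, 50.7 to 57.6 CPM in Ctrl and 80.6 to 83.1 CPM in p53 KO libraries. Its log2 difference was 0.61 (SE 0.073, adjusted p = 0.00012) from Ctrl and 0.01 (SE 0.072) from parental cells. TIMP2 shares 224 exon bases with CEP295NL on the same strand. TIMP4 had 2 to 15 counts per library and passed in no comparison.

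The TIMP1 values moved with those of genes around it. Of the 43 expressed genes within 5 Mb of TIMP1 on the X chromosome, all 43 were lower in Ctrl against parental cells, with a median log2 difference of -0.70 beside the -0.75 of TIMP1. All 43 were higher in p53 KO against Ctrl cells, with a median of 0.94 beside the 1.12 of TIMP1, and 11 of them exceeded TIMP1. Around TIMP3 on chromosome 22, 56 of 72 genes were higher in Ctrl against parental cells (median 0.22 beside 0.84 of TIMP3), and 64 of 72 were lower in p53 KO against Ctrl cells (median -0.41 beside -1.08). TIMP3 lay above all 72 neighbours in the first comparison, and 1 neighbour fell further in the second. The part of these regional shifts in the TIMP values was not tested. Around TIMP2 the median of 126 genes was 0.12 in Ctrl against parental and -0.05 in p53 KO against Ctrl cells, both opposite in sign to TIMP2.

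**Figure D4:**
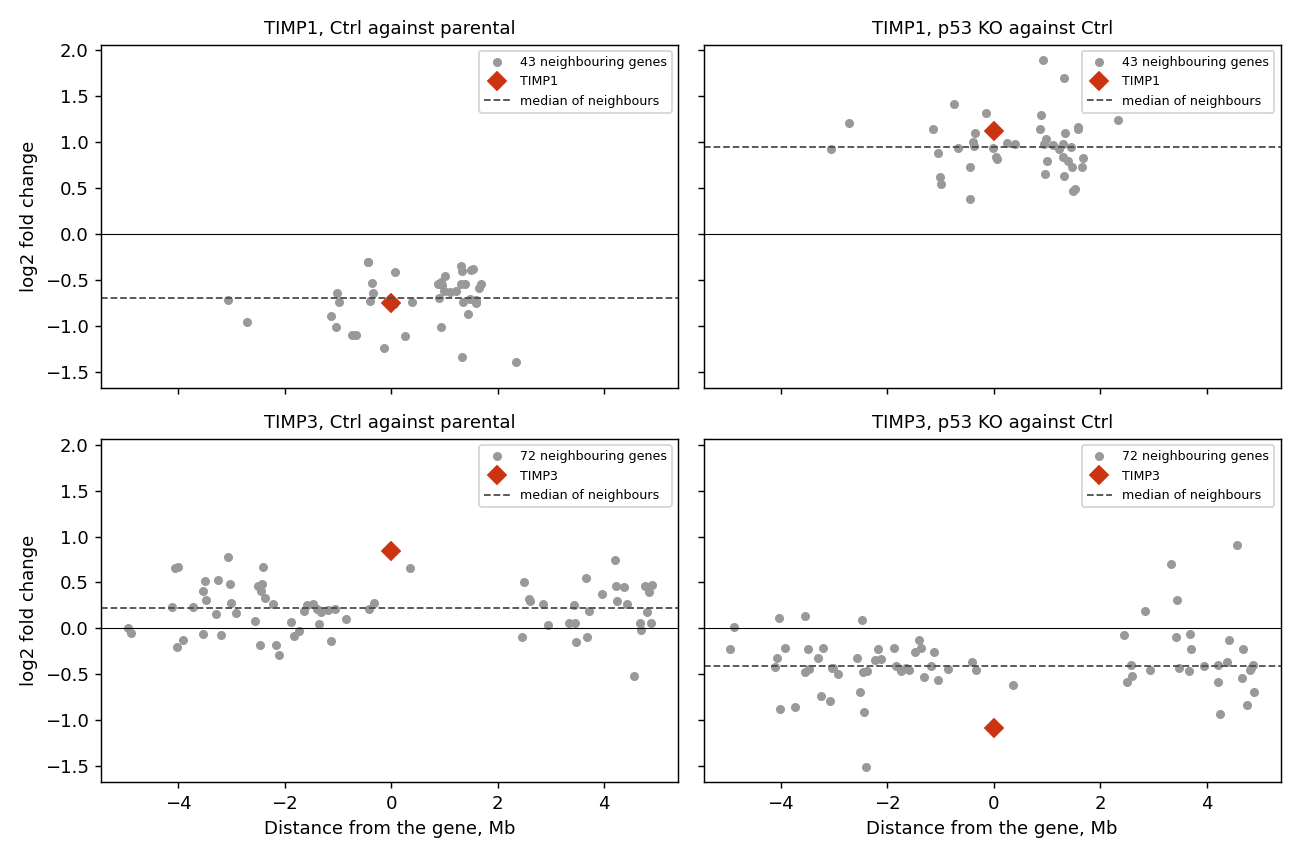
Log2 fold changes of expressed genes within 5 Mb of TIMP1 (top) and TIMP3 (bottom) against their distance from the gene in Mb, for Ctrl against parental (left) and p53 KO against Ctrl (right), with dashed lines at the neighbours' medians. TIMP1 lies among its 43 neighbours, which all move one way, and TIMP3 lies at the edge of its 72 neighbours.

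Genes that act with these families were taken from 5 lists. Their counts stand beside the shares of all genes that passed, which were 9.77% higher and 8.36% lower against parental cells, 15% higher and 14.2% lower against Ctrl cells, and 10.6% higher and 9.69% lower in Ctrl against parental cells. Among ADAM sheddases, the membrane-anchored relatives of ADAMTS proteases, 8 of 14 were tested. Against parental cells 1 was higher (ADAM28) and 0 lower, and against Ctrl cells 4 were higher (ADAM28 among them) and 2 lower. ADAM28 had more counts than in both controls, with 31, 32 and 10 counts in p53 KO, 0 to 2 in parental and 1 to 3 in Ctrl libraries (log2 4.89, SE 0.70 against parental). It passed the filter only through p53 KO libraries, so this is a description and its place in both counts was fixed by the filter. No other sheddase passed against parental cells. Of the 7 ADAMTS-like proteins 4 were tested, with 0 higher and 2 lower against parental and 1 higher and 1 lower against Ctrl cells. ADAMTSL4, a microfibril-associated protein, fell by 0.32 (SE 0.090, adjusted p = 0.032) against parental and by 0.68 (SE 0.089, adjusted p = 0.00021) against Ctrl cells on the log2 scale.

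Of 22 activators, receptors and other inhibitors of pericellular proteolysis, 16 were tested. Against parental cells 3 were higher and 1 lower, and against Ctrl cells 5 were higher and 4 lower. Among the genes higher against both were PLAT and PLAUR. PLAT, the tissue plasminogen activator, rose by 1.32 (SE 0.15, adjusted p = 0.00018) on the log2 scale against parental and 1.92 (SE 0.15, adjusted p = 7.3e-06) against Ctrl cells. PLAUR, the urokinase receptor, rose by 0.56 (SE 0.11, adjusted p = 0.0061) and 0.74 (SE 0.11, adjusted p = 0.00062).

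Of 20 known substrates 12 were tested, with 2 higher and 2 lower against parental and 5 higher and 2 lower against Ctrl cells. LAMA3 and LAMB3, chains of laminin-332, rose against both controls. LAMA3 rose by 0.59 (SE 0.12, adjusted p = 0.0071) and 1.20 (SE 0.13, adjusted p = 5.0e-05), and LAMB3 by 0.46 (SE 0.075, adjusted p = 0.0018) and 0.39 (SE 0.075, adjusted p = 0.0027). FN1, fibronectin, fell by 0.68 (SE 0.13, adjusted p = 0.0050) and 0.64 (SE 0.13, adjusted p = 0.0044). All 15 transcription factors with sites in MMP promoters were tested. Against parental cells 0 were higher and 1 was lower, and against Ctrl cells 5 were higher and 3 lower, with no factor in the same direction in both. In Ctrl against parental cells 2 of these factors were higher and 7 lower.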

How the data were processed

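RNA from 9 libraries (3 per group) was sequenced by the authors as strand-specific, paired-end poly(A) libraries. The authors aligned the reads to GRCh38 with STAR 2.5.1b, summarised them with featureCounts over the Ensembl 85 genes, and deposited the raw whole-number counts. Column names identified the libraries, and totals ranged from 19783778 to 29840452 counts.

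The analysis was run in R 4.3.3, by edgeR 4.0.16 (TMM, filterByExpr at a minimum count of 10, quasi-likelihood test with 1 mean per group over all 9 libraries, Benjamini-Hochberg adjustment over 14513 genes) and, as an alternative, DESeq2 1.42.0. Standard errors follow from the F statistic. The study's own test was DESeq2. RPKM used exon lengths from GENCODE release 44. Neighbours were genes within 5 Mb with a mean log2 CPM above 2. Ratios of summed counts carry exact 95% intervals, and a group at 0 was set to 3 counts. Scripts were tested on simulated data. Figures were drawn with matplotlib 3.10.9.

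All 18 family members that passed the filter were named, with those that exceeded 10 counts in a library. From each related list, up to 4 genes that passed in the same direction against both controls were named. The level of the targeted gene and 1 gene of a related list are not reported here. The leukocyte, endothelial and fibroblast markers, KRT14, MMP3, MMP8, MMP9, MMP10, MMP12 and MMP20 were named after their values were seen. The members and lists were chosen with earlier results of these data known. Replicate numbers did not pair the libraries.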

Additional observations from a re-analysis of the deposited data

Results flagged for a closer look

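MMP2, ADAMTS9 and MMP15 changed in opposite directions in p53 KO and in Ctrl cells when each was compared with parental cells. All 3 genes were higher in each p53 KO library and lower in each Ctrl library than in any parental library. ADAMTS16 and TIMP1 showed the same order of libraries, but their differences of p53 KO from parental cells did not pass. The share of all genes with this order is not given here, so the order is a description. The difference of p53 KO from Ctrl cells was 7.19 on the log2 scale for MMP2, 7.48 for ADAMTS9 and 0.97 for MMP15. Opposite directions from parental cells fix the sign of this difference, so it is given as a description. Both comparisons with parental cells share the parental libraries.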

How the results depend on the processing

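The counts of genes that passed or were called among the families stayed within 1.5 times their main values with DESeq2's size factors in edgeR and with the replicate block. With the replicate block, 6 passed in p53 KO against parental, 12 in p53 KO against Ctrl, 9 in Ctrl against parental cells and 6 against both controls, and 4, 4, 3 and 3 were called. Libraries of the same number did not deviate together (correlations of deviations from -0.348 to 0.0409), so the numbers pair nothing. Between libraries of different numbers the correlations ran from -0.222 to 0.395, the highest being that of p53 KO 3 with Ctrl 1. The alternatives that moved counts were these. Without the filter on low counts, 11 genes passed against parental, 9 were called against Ctrl and 5 against both controls. With at least 10 counts in every library, 4 passed and 1 was called against parental, 1 was called against Ctrl, 1 was called in Ctrl against parental cells, and 4 passed and 0 were called against both controls, since MMP2, ADAMTS9 and ADAMTS2 were then not tested. With only the 2 groups compared in each fit, 13 passed against parental cells. DESeq2 called 7 against Ctrl cells. A log2 threshold of 1 gave 6 called in Ctrl against parental cells. When single libraries were left out, 6 to 14 passed against parental, 12 to 14 against Ctrl, 7 to 12 in Ctrl against parental cells and 6 to 11 against both controls, and the numbers called were 3 to 5, 4 to 5, 3 to 4 and 2 to 4. The highest numbers against parental and against both controls (14 and 11) came without Ctrl 1, and the lowest in Ctrl against parental cells (7) without parental 1. The cause of these shifts was not tested, other than that stated for the stricter filter. Signs turned only in single-library omissions and only for differences that did not pass, with log2 ranges over the omissions of -0.028 to 0.14 for ADAMTS15, -0.14 to 0.90 for ADAMTS2, -0.52 to 0.031 for ADAMTS20 and -0.20 to 0.040 for MMP19 in Ctrl against parental cells, and of -0.011 to 0.041 for TIMP2 and -0.28 to 0.11 for TIMP4 in p53 KO against parental cells. Genes with few counts are limited by depth.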
